A study of Mus musculus with 6 samples.

Results

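Serpins are a superfamily of proteins that share one fold, and most of them inhibit proteases. The family is described here in mouse lung as all genes whose symbol begins with Serpin, each represented by its brightest probe set (highest mean over the 6 arrays) among those annotated to a single gene. By this rule 40 genes of 18193 measured on the array were members, spread over clades A, B, C, D, F, G, H and I, and 56 probe sets were annotated to them. A further 3 probe sets carried several Serpin symbols and stood for no member. The lungs came from C57BL/6 mice aged 6 to 10 weeks, either wild type or carrying the CC10-rtTA-IL13 transgene, in which rtTA, an activator that needs doxycycline and is driven by the promoter of CC10 (Scgb1a1, a gene of airway club cells), switches on the type 2 cytokine IL13. Both genotypes drank doxycycline at 2 mg/mL for 7 days, so that the drug itself was shared by all animals. RNA of the left upper lobe of 2 transgenic and 4 wild-type mice was hybridised, one Affymetrix array per sample. The comparison asks which serpins change in lungs exposed to IL13 from the airway epithelium.

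An inhibitory serpin offers its reactive loop to a protease as bait, is cut, and then traps the enzyme in a covalent complex that destroys both. Clade A, C, D, F and G serpins are mostly secreted plasma proteins that control elastase, the clotting enzymes, plasmin and the first proteases of complement, and some of them have lost inhibition and carry hormones. Clade B serpins lack a classical secretion signal, act largely inside cells, and protect leukocytes and epithelia against their own granule and lysosomal proteases. In the lung the family is best known for alpha-1 antitrypsin, whose human deficiency leads to emphysema.

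The values are log2 RMA values, as deposited, running from 2.297 to 15.19 with array medians of 5.28 to 5.31. The labels call the samples biological replicates. An exact two-sided rank test on 2 arrays against 4 has 15 splits and cannot go below p = 0.133, and calls were therefore taken from limma. The Il13 probe set read 4.24 and 4.09 with the transgene and 3.72 to 4.03 without it (adjusted p = 0.113, limma). Where its probes lie relative to the transgene was not examined, so this reading does not check the labels. The lung markers were present, with mean Sftpc values of 15.15 (transgenic) and 15.12 (wild type). Of 6 macrophage markers 5 rose, and their summed log2 level was 70.0 to 70.2 in transgenic and 53.9 to 55.3 in wild-type arrays. Airway secretory markers summed to 64.9 to 67.4 and 77.0 to 79.5. Heart markers summed to 38.2 and 26.1 in transgenic replicates 1 and 2 and to 42.0 to 53.6 in wild-type arrays, and fat markers to 30.7, 16.8 and 33.4 to 42.5. In whole-lobe RNA a change in the number of cells of a type and a change in RNA per cell cannot be told apart.

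Most serpin genes did not pass the test. At a Benjamini-Hochberg adjusted p under 0.05 in limma, 3 of 40 members were higher in transgenic lungs, against 8.43% of all genes, and 1 was lower, against 10.5%. The genes that rose were Serpina10, Serpina3n and Serpind1, and the gene that fell was Serpinf1. In either direction 4 of 40 members passed, where 19.0% of all genes did. With a log2 difference of at least 1 in size, 2 members were higher and 1 lower, beside 3.02% and 1.91% of all genes. The median size of a member's log2 difference was 0.19, close to the 0.21 of all genes, and the median SE was 0.14 against 0.13. Without transgenic replicate 1 the count was 1 higher (Serpina10) and 2 lower (Serpinf1 and Serping1), beside 731 higher and 580 lower among all 18193 genes. Without transgenic replicate 2 it was 3 higher and 0 lower, beside 902 and 860 of all genes, where all 6 arrays gave 1534 and 1914. Without wild-type replicate 1 the serpins kept their count of 3 and 1, beside 1133 and 1245 of all genes. Without variance moderation Serpina10 alone of the serpins passed, beside 835 higher and 693 lower genes.

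**Figure D1:**
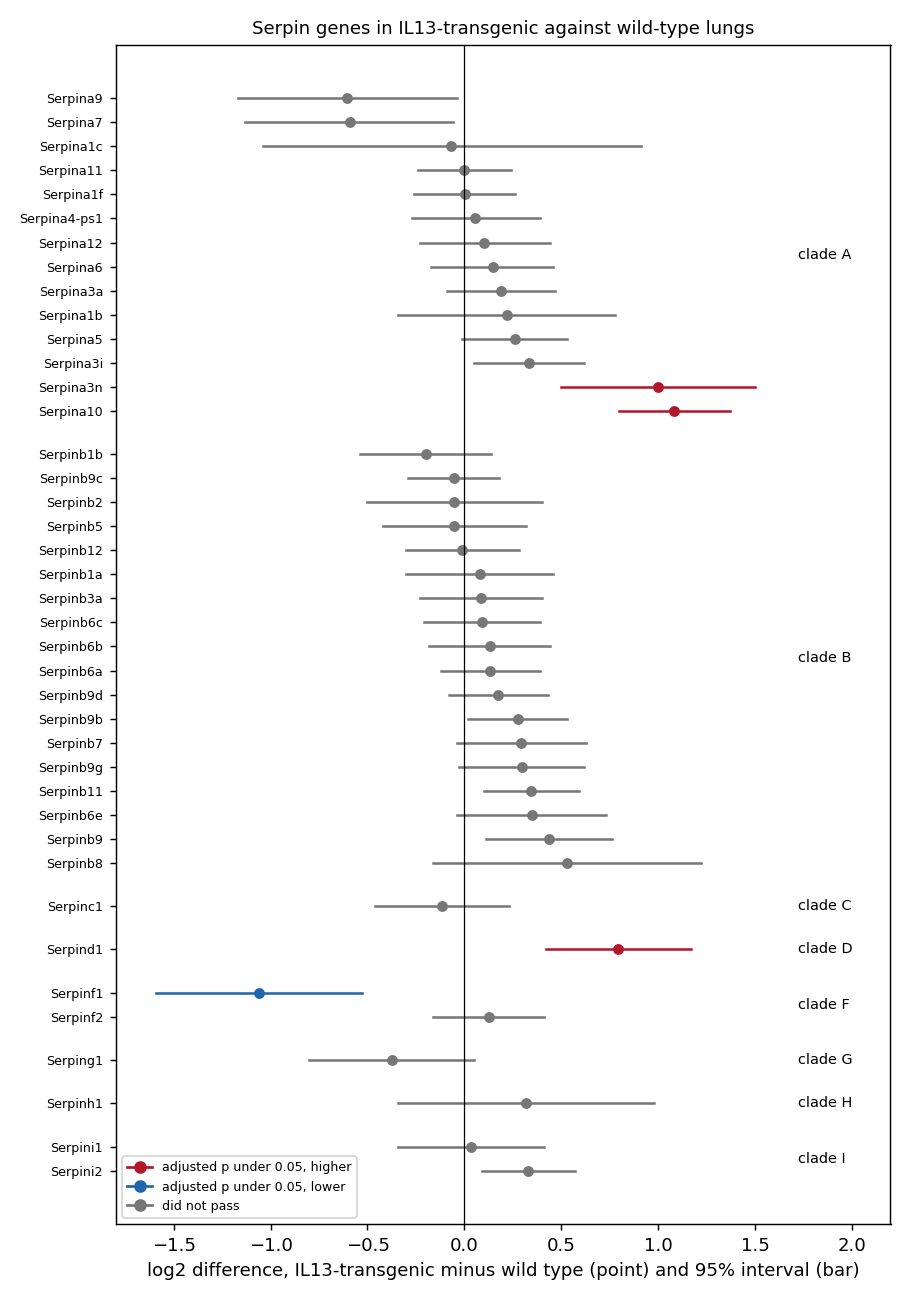
Log2 difference between IL13-transgenic (n = 2) and wild-type lungs (n = 4) of each of 40 serpin genes, grouped by clade, with points for the estimate and bars for the 95% interval from limma. Serpina10, Serpina3n and Serpind1 lie to the right, Serpinf1 to the left, and the 36 grey genes did not pass.

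The members mostly had low readings. Of the 40 members 31 had a mean below that of the median gene, and 24 were under 5.28, the lowest array median, on every array, with values between 2.53 and 5.24. Whether a low reading stands for weak probes or for little RNA cannot be told apart. Among members at or above the median gene 2 of 9 passed, beside 27.8% of all such genes, and among members below it 2 of 31 passed, beside 10.1%.

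For 11 members both transgenic values lay above all wild-type values, beside 19.7% of all genes, and for 2 both lay below, beside 22.0% (13 in either direction, beside 41.7%). The estimated difference was positive for 29 of 40 members, beside 49.2% of all genes. The median log2 difference was 0.13 over the members and 0.0 over all genes. Neither value was compared with genes of similarly low readings. Small differences also moved with scaling. With quantile normalization repeated, the difference of Serpinb3a went from 0.09 to 0.03 and that of Serpinb1a from 0.08 to 0.13. Of the 36 genes that did not pass, 33 differed by less than 0.5 on the log2 scale, and for 32 the 95% interval lay wholly within a 2-fold change (a log2 difference between -1 and 1). For the other 4 a change of that size lay inside the interval.

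**Figure D2:**
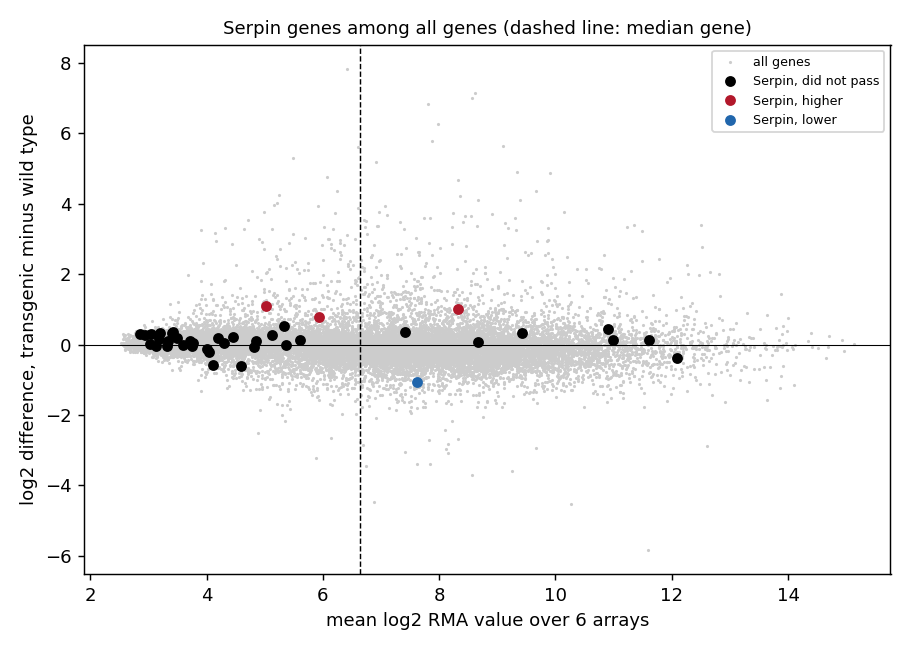
Mean log2 RMA value over 6 arrays (horizontal) and log2 difference between transgenic and wild-type lungs (vertical) for all 18193 genes in grey, with the 40 serpin genes as large points and the median gene as a dashed line. Of the serpin genes 31 lie left of the dashed line, and the 4 that passed reach differences from -1.06 to 1.08.

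The serpins that restrain blood clotting were led by Serpina10, the protein Z-dependent inhibitor of clotting factor X. Wild-type replicates 1 to 4 read 4.74, 4.71, 4.50 and 4.70 on the log2 scale, and transgenic replicates 1 and 2 read 5.62 and 5.87. Both transgenic values lay above every wild-type value by far more than the wild-type spread (mean 4.66 ± 0.111, SD, n = 4). The gene rose 2.12-fold (log2 difference 1.08 ± 0.12, SE, adjusted p = 0.000812), and it passed without any single array, at adjusted p-values of 0.00154 to 0.0129. It has 1 probe set, of a type (suffix s) that may match more than one transcript.

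Serpind1 encodes heparin cofactor II, which inhibits thrombin on glycosaminoglycans of the vessel wall. It read 6.59 and 6.34 in transgenic lungs and 5.85, 5.81, 5.34 and 5.68 in wild-type lungs, again with no overlap. The rise was 1.74-fold (0.80 ± 0.16, adjusted p = 0.0119). Without transgenic replicate 1 the difference was 0.67 and did not pass (adjusted p = 0.118).

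The main inhibitor of clotting in plasma, antithrombin, is encoded by Serpinc1, the only member of clade C. It read 3.79 and 4.08 in transgenic and 4.06, 3.78, 4.16 and 4.20 in wild-type arrays, and the groups overlapped (difference -0.12, 95% interval -0.46 to 0.23). Serpina5, the protein C inhibitor, read 3.03 and 3.20 against 2.77 to 3.01 and differed by 0.26 ± 0.12 (adjusted p = 0.171). Serpinf2, the inhibitor of plasmin, differed by 0.13 ± 0.12, and Serpinb2, an inhibitor of urokinase that activated macrophages make, by -0.05 ± 0.20 with values of 3.51 to 4.06 on all arrays. Of these 6 inhibitors of clotting and fibrinolysis 2 rose, beside 8.43% of all genes, and so few genes cannot be set apart from that share.

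**Figure D3:**
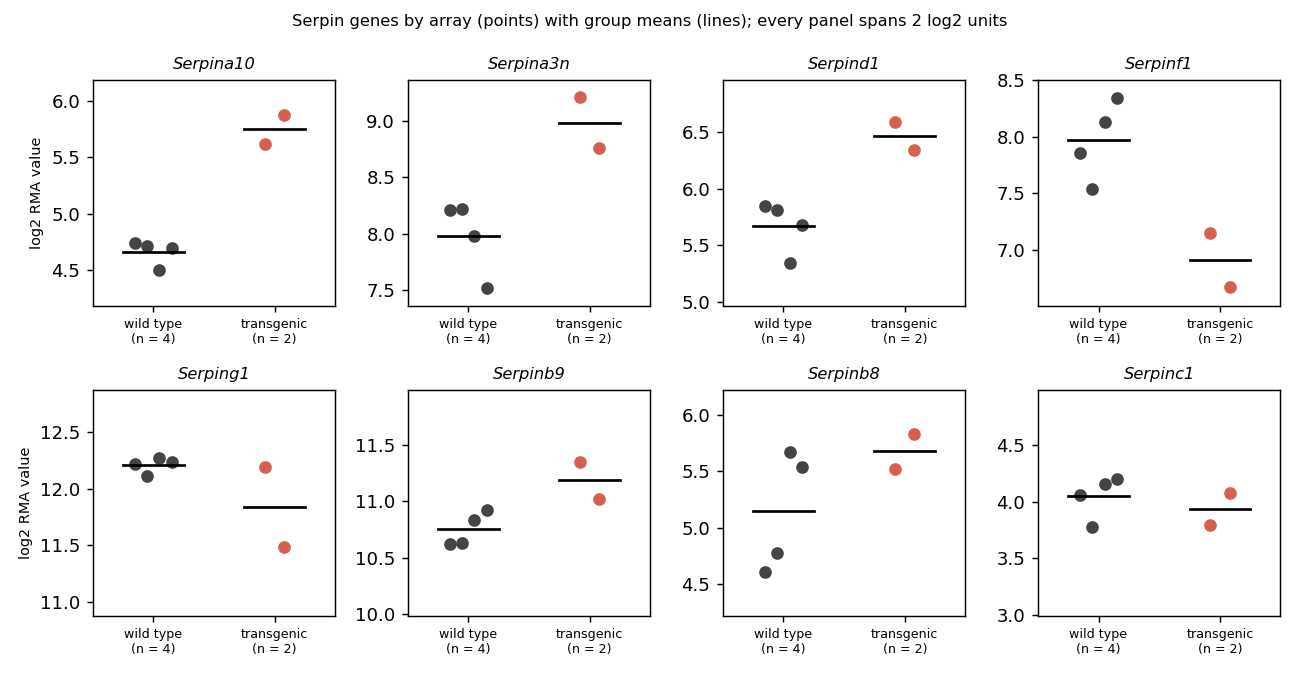
Log2 RMA value of 8 serpin genes in each array (points) with group means (lines), wild type (n = 4) and transgenic (n = 2), every panel spanning 2 log2 units. The groups do not overlap for Serpina10, Serpina3n, Serpind1, Serpinf1 and Serpinb9, and they overlap for Serping1, Serpinb8 and Serpinc1.

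The enzymes and cofactors of the same system moved in both directions. Of 31 measured genes of a plasminogen and coagulation list 9 rose, 3 fell and 19 did not pass, with a median log2 difference of 0.16. F7, which starts clotting with tissue factor, rose from 7.65 to 10.04 (2.39 ± 0.19, adjusted p = 9.98e-05). F10, the target of Serpina10, rose from 5.67 to 7.95 (2.28 ± 0.21, adjusted p = 0.00024), and its transgenic values of 7.95 and 7.96 lay above the highest wild-type value of 6.12. The fibrinogen genes Fgg and Fga rose by 1.92 ± 0.34 and 1.81 ± 0.25, whereas Fgb, chosen after its values were seen, differed by -0.03. Transgenic replicate 1 was the higher of the pair for Fgg (6.83 and 5.46) and Fga (5.57 and 4.65).

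The 3 genes that fell were Thbd, F3 and Plat. Thbd, the thrombin receptor thrombomodulin, fell by 1.23 (SE 0.16), F3, tissue factor, by 0.66 (SE 0.13), and Plat, tissue plasminogen activator, by 0.64 (SE 0.17). The call of F3 was lost without transgenic replicate 2 (adjusted p = 0.0777), and that of Plat without transgenic replicate 1 (0.259) or 2 (0.0693) or wild-type replicate 1 (0.0871). F2, the thrombin that Serpind1 and Serpinc1 inhibit, read 4.12 in transgenic and 4.39 in wild-type lungs and did not pass (adjusted p = 0.168), as did Plg (0.269) and Plau (0.186). Without transgenic replicate 1 the list had 6 rises and 2 falls, without transgenic replicate 2 it had 8 and 1, without wild-type replicate 1 it had 7 and 2, and without wild-type replicate 4 it had 9 and 5. The macrophage markers rose and the endothelial markers (42.6 to 44.0 summed in transgenic, 45.5 to 49.5 in wild type, 2 of 5 lower) fell in part in the same arrays. The liver markers, which mark the main source of clotting factors in the body, summed to 25.9 to 27.4 and 25.6 to 28.1, and 0 of 5 passed (limma, 0 of 5 at an unadjusted p under 0.05). The part of macrophage or endothelial abundance in these differences was not tested.

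**Figure D4:**
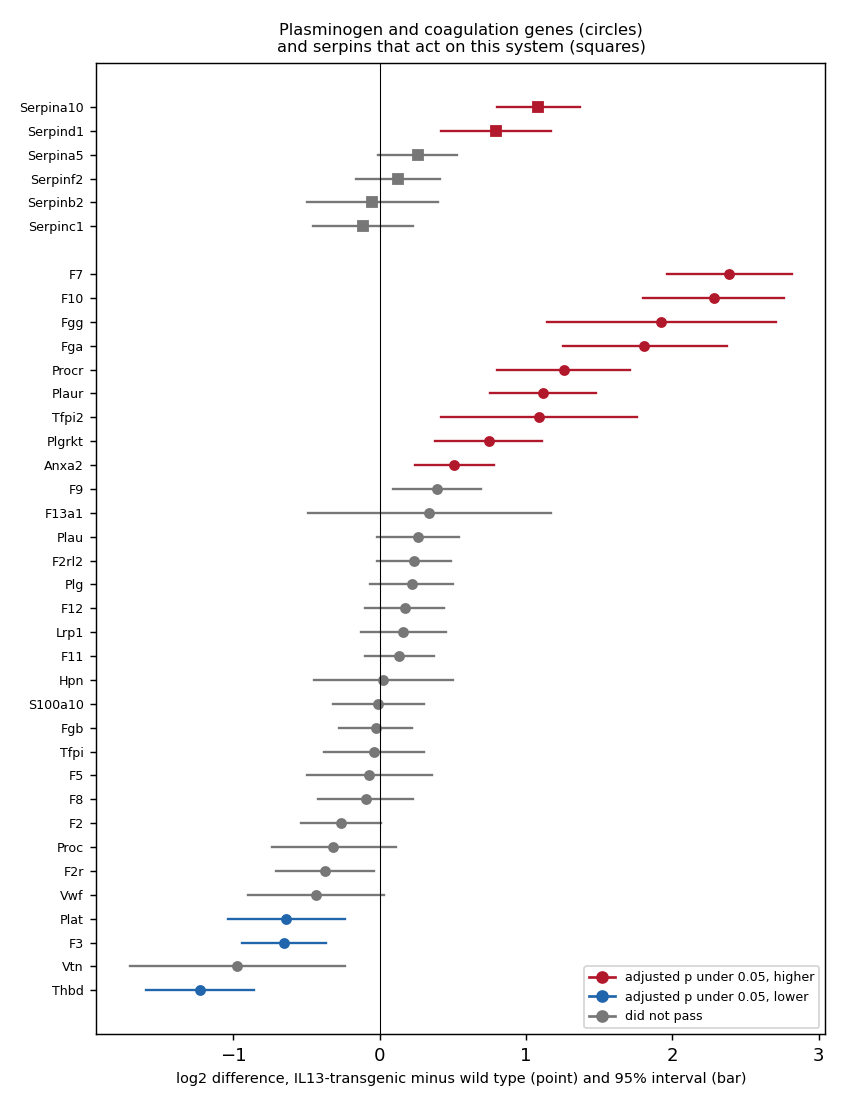
Log2 difference between IL13-transgenic and wild-type lungs, with 95% intervals from limma, for 31 plasminogen and coagulation genes (circles) and 6 serpins that act on this system (squares). Of the squares Serpina10 and Serpind1 passed, and of the circles 9 rose and 3 fell, led by F7 and Thbd.

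Serpina3n belongs to the mouse relatives of human antichymotrypsin, a much expanded group, and is an acute-phase inhibitor of granzyme B and of leukocyte proteases. It read 9.21 and 8.76 in transgenic arrays and 8.21, 8.22, 7.98 and 7.52 in wild-type arrays. All transgenic values lay above all wild-type values, although transgenic replicate 2 stood closer to wild-type replicates 1 and 2 than transgenic replicate 1 did. The rise was 2.0-fold (1.0 ± 0.22, adjusted p = 0.0151). Without transgenic replicate 1 it was 0.78 and did not pass (adjusted p = 0.146). Its relatives Serpina3i and Serpina3a read 2.92 to 3.51 and 3.99 to 4.38 over all arrays and differed by 0.34 ± 0.13 (adjusted p = 0.101) and 0.19 ± 0.12 (0.335).

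The promoters of the genes that passed, other than Serpina10, are shown because these are members whose RNA moved. RefSeq sequences (GRCm38.p6) were at hand for 34 of the 40 members, among them Serpina3n, Serpind1 and Serpinf1 but not Serpina10. They cover 250 bases before and 50 after a start. The upstream 250 bases follow, 5′ to 3′ on the strand of the gene, at chr12:104406458-104406707 (plus strand), chr16:17331121-17331370 (plus strand) and chr11:75422624-75422873 (minus strand). In the Serpina3n line the capitals mark the bases most like a STAT6 motif match in its relative Serpina3i, whose line (chr12:104263078-104263107, plus strand) has that match in capitals.
Serpina3n: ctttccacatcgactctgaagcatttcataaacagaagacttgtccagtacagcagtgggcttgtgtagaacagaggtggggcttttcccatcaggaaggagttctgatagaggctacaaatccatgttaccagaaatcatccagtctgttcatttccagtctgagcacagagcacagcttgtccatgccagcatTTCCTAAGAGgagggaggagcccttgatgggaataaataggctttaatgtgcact
Serpina3i: tcatcagcatTTCCTAAGAAgtgggaggag
Serpind1: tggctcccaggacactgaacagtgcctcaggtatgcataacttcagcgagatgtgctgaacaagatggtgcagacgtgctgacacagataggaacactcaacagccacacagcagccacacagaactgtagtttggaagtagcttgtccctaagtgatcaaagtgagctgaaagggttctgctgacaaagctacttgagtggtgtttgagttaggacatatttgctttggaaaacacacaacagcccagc
Serpinf1: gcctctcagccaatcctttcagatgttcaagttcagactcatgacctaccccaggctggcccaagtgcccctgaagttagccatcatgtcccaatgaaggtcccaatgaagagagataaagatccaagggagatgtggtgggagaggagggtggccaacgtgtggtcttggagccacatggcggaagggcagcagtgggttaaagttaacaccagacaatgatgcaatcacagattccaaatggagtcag

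STAT6, the transcription factor that the IL13 receptor activates, is known to bind TTC and GAA with any 4 bases between them, and other STAT factors bind the same letters with any 3 bases between. Both motifs read the same on either strand. The STAT6 motif stood in 6.95% of 32851 RefSeq promoter windows and in 6 of the 40 windows of the 34 members. The windows with a match belong to 6 members, namely Serpina12, Serpina3i, Serpina5, Serpinb1b, Serpinb6a and Serpinb7. The motif with the shorter gap stood in 8.3% of all windows and in 8 of the 40 member windows. Those windows belong to 6 members, of which Serpina3i and Serpinb6a hold both motifs. TATAAA, on either strand, stood in 13.6% of all windows and in 11 of the 40 member windows, which belong to 8 members. None of the 3 motifs was found in the windows of Serpina3n, Serpind1 or Serpinf1, and Serpina10 had no window to search. The members with the STAT6 motif differed by -0.20 to 0.34 on the log2 scale. In either direction 0 of 6 passed, beside 19.0% of all genes (limma, 1 of 6 at an unadjusted p under 0.05). So few genes cannot be set apart from that share. A match describes letters and shows no binding. In Serpina3n the capitals differ from the match of Serpina3i by a single substitution, A10G, counted from 1 at the 5′ end of the match with Serpina3i as reference. The match lies 34 to 25 bases before the start in Serpina3i, and the capitals lie 55 to 46 bases before it in Serpina3n.

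Genes of alpha-1 antitrypsin, which in mice is encoded by several near-identical copies and inhibits neutrophil elastase, did not pass. Serpina1b read 4.63 and 4.56 in transgenic and 4.34, 4.41, 3.86 and 4.91 in wild-type arrays. For Serpina1c the values were 4.87 and 4.66 against 4.47, 4.53, 4.33 and 6.01. Wild-type replicate 4 was the highest of all arrays for both, and also in the second probe set of Serpina1b (4.49) and in both probe sets that carry several Serpina1 symbols (3.70 and 3.84). That array also had the highest summed liver (28.1), heart (53.6), fat (42.5) and mesothelial (39.1) markers, whose part in these values was not tested. Both probe sets of Serpina1b are of a type (suffix x) that may match other transcripts, and no probe sequences were at hand. The values may therefore hold for several copies rather than for 1 gene, which was not tested.

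The other clade A members include carriers of hormones. Serpina7, which carries thyroxine in blood, read 3.45 and 3.99 against 3.96 to 4.78, and its difference of -0.59 ± 0.23 did not pass (adjusted p = 0.121). Serpina6, the corticosteroid-binding globulin, differed by 0.15 ± 0.14. Serpina9, a serpin of germinal centre B cells in humans, was lower in both transgenic arrays (4.30 and 4.05) than in any wild-type array (4.32 to 5.24), but at -0.61 ± 0.25 it missed the threshold (adjusted p = 0.13). Serpina12, the fat-derived vaspin, and Serpina11, Serpina1f and the pseudogene Serpina4-ps1 differed by 0.00 to 0.10. Over the whole clade 2 of 14 genes rose, beside 8.43% of all genes, and 0 fell, beside 10.5%, and the median log2 difference was 0.13.

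Serpina10 and Serpina3n stand at opposite ends of the clade A cluster in RefSeq gene order, which holds 28 Serpin genes, 13 of them measured here. Serpina6, the next gene to Serpina10, did not pass. Serpinf1 and Serpinf2 are likewise neighbours, and only the first of these passed. Whether neighbours differed from each other was not tested.

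Serpinf1 encodes pigment epithelium-derived factor, a secreted serpin without inhibitory activity that restrains the growth of vessels. It was the one serpin that fell. Its values were 7.15 and 6.67 in transgenic lungs and 7.86, 7.54, 8.13 and 8.34 in wild-type lungs, with every transgenic value below every wild-type value. It fell by 1.06 on the log2 scale (SE 0.23, adjusted p = 0.015), or 2.08-fold. A second probe set read 5.42 and 5.64 against 6.00 to 6.45 and fell by 0.71 (SE 0.16, adjusted p = 0.0231 over all probe sets). Without transgenic replicate 2 the difference of the first was -0.82 and did not pass (adjusted p = 0.132).

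Serpinf1 is known from fibroblasts and fat cells, and the markers of both varied among these samples. In the first probe set Serpinf1 was lowest in transgenic replicate 2 and highest in wild-type replicate 4. Summed fat (16.8 and 42.5), heart (26.1 and 53.6) and mesothelial markers (33.6 and 39.1) were lowest and highest in the same arrays. The second probe set of Serpinf1 was lowest in transgenic replicate 1 (5.42) and highest in wild-type replicate 4 (6.45). Of 4 measured fat markers 3 fell. Of 5 fibroblast markers 1 fell and 1 rose, with sums of 46.1 to 48.2 in transgenic and 45.4 to 51.3 in wild-type arrays. Without wild-type replicate 4 the fall was -0.94 and passed (adjusted p = 0.0192). The part of fat, fibroblast, heart or mesothelial content was not tested.

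Serping1, the C1 inhibitor that holds back the first complement proteases and the kinin-forming contact system, read 12.19 and 11.48 in transgenic arrays and 12.22, 12.11, 12.27 and 12.24 in wild-type arrays. Transgenic replicate 1 lay within the wild-type range, and transgenic replicate 2 lay well below it. The difference of -0.37 ± 0.18 did not pass (adjusted p = 0.202), but without transgenic replicate 1 it was -0.73 and passed (adjusted p = 0.0277), so the value rests on which transgenic lung is read. Of 9 measured genes of the contact and classical complement proteases 1 rose, 0 fell and 8 did not pass. The riser was Kng1, the kininogen that plasma kallikrein cuts (6.15 and 4.71 against 3.77 to 4.35, adjusted p = 0.0277), and it did not pass without transgenic replicate 1 (0.138) or without wild-type replicate 1 (0.069) or 3 (0.0588). The targets of Serping1 in complement, C1s1 and C1ra, differed by 0.02 and 0.52 and did not pass.

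Clade B, the intracellular serpins, was the largest clade. Of its 18 members 0 passed in either direction, beside 19.0% of all genes (limma, 3 of 18 at an unadjusted p under 0.05). Its differences ran from -0.20 to 0.53 with a median of 0.13. In 5 of the 18 both transgenic values lay above all wild-type values, beside 19.7% of all genes, and in 0 below, beside 22.0%. The clade lies in 2 gene clusters, with 7 and 11 measured members and median differences of 0.09 and 0.13.

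The clade B genes with readings at or above the median gene are those of leukocytes and epithelium. Serpinb9, which shields cytotoxic and antigen-presenting cells from granzyme B, read 11.35 and 11.02 in transgenic and 10.62, 10.63, 10.83 and 10.92 in wild-type arrays. These groups did not overlap, and the difference of 0.43 ± 0.14 just missed the threshold (adjusted p = 0.0671). It passed without wild-type replicate 4 (0.49, adjusted p = 0.0475). The second probe set of Serpinb9, at 9.34 and 8.99 against 9.04 to 9.26, differed by 0.02 ± 0.13, so the probe sets of this gene disagree. Serpinb1a, an inhibitor of neutrophil elastase and cathepsin G, differed by 0.08 (95% interval -0.30 to 0.46). Serpinb6a, an inhibitor of cathepsin G, and its relative Serpinb6b differed by 0.13 in either case, with intervals of -0.12 to 0.39 and -0.18 to 0.44. Serpinb6e, read from a probe set that may match other transcripts, differed by 0.35 ± 0.17.

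Serpinb8, an inhibitor of furin in humans, had the largest difference of the clade. It read 5.52 and 5.83 in transgenic and 4.61, 4.78, 5.67 and 5.54 in wild-type arrays. Wild-type replicates 3 and 4 were as high as the transgenic arrays, and the difference of 0.53 ± 0.30 did not pass (adjusted p = 0.272). Its second probe set, which read 5.35 and 5.16 against 4.74 to 5.0 and did not overlap, differed by 0.45 ± 0.13 (adjusted p = 0.0581 over all probe sets).

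The remaining 12 clade B genes include some known from skin and other stratified epithelia or from placenta, and Serpinb2 of activated macrophages. They comprise Serpinb2, Serpinb3a (a relative of the human squamous cell carcinoma antigens), Serpinb5 (maspin), Serpinb7 (megsin), Serpinb11, Serpinb12, Serpinb1b, Serpinb6c, Serpinb9b, Serpinb9c, Serpinb9d and Serpinb9g. Their differences ran from -0.20 to 0.34. Serpinb11 came nearest (3.73 and 3.57 against 3.24 to 3.38, adjusted p = 0.0608), and 0 of 5 markers of stratified epithelium passed (limma, 1 of 5 at an unadjusted p under 0.05). Serpinb9b read 5.27 and 5.33 against 4.89 to 5.10 and differed by 0.28 ± 0.11 (adjusted p = 0.124).

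The proteases that clade B serpins meet were measured beside them. Of 16 granule serine proteases of leukocytes 1 rose, 1 fell and 14 did not pass. The neutrophil elastase gene Elane rose from 3.70 to 4.25 (adjusted p = 0.0113), though not without transgenic replicate 1 (0.0683) or 2 (0.0813), and the granzyme gene Gzma fell by 0.90 (SE 0.16, adjusted p = 0.00566), though not without transgenic replicate 1 (0.0704). For Elane all readings were low (3.62 to 4.28), under the lowest array median of 5.28. The granzyme B gene Gzmb, with means of 5.03 (transgenic) and 5.44 (wild type), did not pass. Markers of neutrophils (0 of 6 passed), of NK and cytotoxic T cells (0 of 4) and of mast cells and basophils (1 of 6, lower) mostly did not pass, with counts at an unadjusted p under 0.05 of 1, 0 and 2. The cysteine cathepsins of the lysosome, by contrast, included 6 rises and 1 fall among 10 genes, with a median log2 difference of 1.45. Ctsk rose by 4.90 ± 0.17, Ctsz by 2.37 ± 0.18, Ctsb by 2.02 ± 0.12 and Ctss by 1.98 ± 0.12, in the same arrays in which macrophage markers rose. The gene that fell, Ctsf (-0.52), did not pass when any array other than wild-type replicate 2 was left out (adjusted p up to 0.189).

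Serpinh1 encodes Hsp47, a chaperone of the endoplasmic reticulum that binds procollagen and inhibits no protease. Its probe set with the higher mean read 9.97 and 9.30 in transgenic and 8.82, 9.08, 9.71 and 9.67 in wild-type arrays, a difference of 0.32 ± 0.29 (adjusted p = 0.493). That probe set is of a type (suffix x) that may match other transcripts. The other probe set read 9.32 and 8.70 against 9.27 to 9.49 and differed by -0.38 ± 0.17 (adjusted p = 0.21 over all probe sets). The signs oppose each other, neither passed, and no direction can be given for this gene. Of 18 measured genes of collagen folding and export 5 rose, 2 fell and 11 did not pass, led by Col3a1 (1.4 ± 0.36). Those calls rested on single arrays: without transgenic replicate 2 the list had 1 rise and 1 fall, without wild-type replicate 1 it had 2 and 1, without wild-type replicate 3 it had 3 and 1, and without transgenic replicate 1 it had 0 and 0. Without wild-type replicate 4 it had 5 and 3, and without wild-type replicate 2 it had 6 and 1.

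Clade I holds Serpini1, the neuroserpin that inhibits tissue plasminogen activator in brain, and Serpini2, a serpin of the pancreas. Serpini2 read 3.60 and 3.65 against 3.40, 3.28, 3.28 and 3.23. The groups did not overlap, but all values were low and the difference of 0.33 ± 0.11 did not pass (adjusted p = 0.0646). Serpini1 differed by 0.03 ± 0.16 in its probe set with the highest mean and by -0.52 ± 0.15 (adjusted p = 0.0527 over all probe sets) and -0.12 ± 0.11 in the other two.

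Protease inhibitors of other families were set beside the serpins. Of 26 such genes 7 rose, 5 fell and 14 did not pass, with a median log2 difference of -0.03. The metalloproteinase inhibitor gene Timp1 rose 7.32-fold (2.87 ± 0.30), and Itih4, which encodes an acute-phase protein, 6.12-fold (2.61 ± 0.12). Slpi, the secretory inhibitor of elastase, rose 4.46-fold (2.16 ± 0.17). Itih5 fell by 1.78 (SE 0.18). Whether these folds differ from the 2.12-fold rise of Serpina10 was not tested. Without transgenic replicate 1 the list had 5 rises and 2 falls, and without transgenic replicate 2 it had 6 and 3. Of 10 membrane serine proteases 3 rose and 0 fell, among them Corin (4.77 ± 0.36) and Tmprss4 (1.10 ± 0.14). Furin (0.40 ± 0.11) lost its call without any single array, whereupon the list had 2 rises.

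The authors' deposited table of comparisons gives the same log2 differences for the probe sets of the 40 members and q-values of its own. Of the 40 members 0 had a q-value under 0.05 in the authors' deposited table, while 846 of 45037 probe sets did. For Serpina10, Serpina3n, Serpind1 and Serpinf1 the q-values in the authors' deposited table came to 0.217, 0.275, 0.207 and 0.12. The lowest among the members in the authors' deposited table was that of Serpini2 (0.0684). The 4 calls above are those of limma, and the test behind those q-values was not given.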

How the data were processed

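The authors deposited log2 values made with RMA, per the submitters' processing notes, which give no version. The authors' deposited table also holds a log2 fold column and a q-value per probe set, per the file headers, made by a test not given in the sources used here. Its 6 columns of single arrays match no sample label and were not used. Of 45037 probe sets 34945 carried a single gene symbol, and current symbols came from RefSeq by Entrez ID (34741 matched). Each of 18193 genes was represented by its single-symbol probe set of highest mean.

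The test was limma 3.58.1, run in R 4.3.3 (lmFit, eBayes, 4 residual degrees of freedom, Benjamini-Hochberg over all genes, threshold 0.05), and the SE is the moderated one. The 95% intervals use the same fit. A fit with a lone transgenic array takes its spread from the wild-type arrays. The fit was run on simulated data with noise drawn independently for each gene and array. Such data hold no variation shared by many genes of an array, so that run does not check the calls made here. Marker sums add log2 values over a list. The members, lists and tests were chosen with earlier results of these data known. Values in every array were given for members past the threshold with a log2 difference of at least 1, the largest difference in each clade where none passed, and members with an array far from its group. For other lists up to 4 genes that passed were named. Serpind1 and further values shown array by array were chosen after they were seen. The number of arrays limits the precision. Plots used matplotlib 3.10.9 (Python 3.11.15). Alternatives covered filters, scaling, moderation, array weights, probe set choice, a replicate block and leaving out each array.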

Additional observations from a re-analysis of the deposited data

Results flagged for a closer look

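Among the 4 wild-type arrays of each of 40 serpin genes, 1 array stood far from the others for 2 genes, where chance flags about 1 in 20 groups. In wild-type replicate 4 Serpina1c read 6.01, where replicates 1 to 3 of that group read 4.33 to 4.53. The same array was the highest for each other probe set of the Serpina1 genes, and it had the highest summed liver, heart, fat and mesothelial markers of the 6 arrays. Without it the difference of Serpina1c was 0.32 in place of -0.07, and neither passed. For Serpina10 the low array was wild-type replicate 3 at 4.50, with its group otherwise at 4.70 to 4.74, and without that array its rise was 1.03 (adjusted p = 0.00292, limma).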

How the results depend on the processing

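Serpina10 was called under every alternative in which it was tested, with a log2 difference of 0.96 to 1.21; 2 filters on low values removed it. Without variance moderation 1 serpin was higher and 0 lower. Serpins higher numbered 2 under each filter on low values (Serpina3n and, at or above the median gene, Serpinb9 with adjusted p = 0.0458, or, at log2 of at least 6, Serpind1, which the first filter removed), 5 with an intensity trend, array weights or the mean of probe sets (Serpinb11 and Serpini2 joined under the first and the last, Serpinb11 and Serpinb9 under weights), and 1 to 4 when 1 array was left out. Serpins lower numbered 2 with the most variable probe set, where Serpini1 turned to -0.52 and passed (adjusted p = 0.0499), and 0 to 2 when 1 array was left out. Replicate numbers are shared by name only: deviations of same-numbered arrays correlated at -0.076 and 0.274. With the replicate number as a block, which leaves wild-type replicates 3 and 4 without a partner and 1 residual degree of freedom, 6 serpins were higher, with Serpinb6e, Serpinb8 and Serpinb9 added, and 1 lower. Over all genes, 835 were higher and 693 lower without moderation, against 1534 and 1914 in the main fit. The counts were 1545 and 1941 with an intensity trend, 1711 and 2165 with array weights, and 1573 and 1572 with the mean of probe sets. They were 1494 and 1698 with the most variable probe set, and 1609 and 2150 with the replicate block. The filter at the median gene kept 9 serpins and 9097 genes, 1116 higher and 1835 lower. The filter at log2 of at least 6 kept 10 serpins and 10832 genes, 1369 higher and 1977 lower. Of the values of single genes under an alternative 656 kept their side of the threshold, 6 lost a call, 12 gained one and 1 reversed. The causes were not tested. For 24 of the 40 genes every reading lay below the array medians, and what that level hides was not tested.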
